A study of Mus musculus with 6 samples.

Results

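The 9 genes described here mark monocytes that enter the injured heart and the growth factor axis that maintains macrophages: Ccr2, Cx3cr1, Ly6c2, Plac8, Chil3, Csf1, Il34, Csf1r and Adgre1. They were taken by symbol from a table of 38293 genes, all 9 were found in it, and 7 of them were among the 14746 genes that passed the filter on low counts, whereas Ly6c2 and Chil3 were not. RNA was sequenced from hearts of 3 control (Zeb2 fl/fl) and 3 Zeb2 cKO mice of a backcrossed C57BL/6J strain, 14 days after permanent occlusion of the left anterior descending artery (MI), 1 library per heart. All mice were adult, carried floxed Zeb2 alleles on both chromosomes and had an infarct, so no uninjured heart was compared. The Zeb2 cKO mice carried in addition a Cre recombinase driven by the murine Myh6 promoter, which is active in cardiomyocytes, and the labels call the Zeb2 fl/fl mice WT without naming a Cre. The sampled tissue was the border of the infarct according to the labels and the remote zone according to the methods. The comparison asks whether loss of Zeb2 from cardiomyocytes went together with other levels of monocyte recruitment and growth factor transcripts in the surrounding tissue. Values are given as CPM, counts scaled to a library's TMM-normalised size and to 1e+06, and log2FC is the log2 fold change of Zeb2 cKO over control hearts.

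Ly6C-high monocytes leave the bone marrow and enter injured tissue through the chemokine receptor CCR2, which binds CCL2 and related ligands. In the infarct they give rise to macrophages, which lose Ly6C and gain markers such as the adhesion receptor F4/80, encoded by Adgre1. Growth and survival of macrophages depend on the receptor tyrosine kinase CSF1R, whose ligands are CSF1 and IL-34. Cx3cr1 encodes the fractalkine receptor of patrolling monocytes and many macrophages, Plac8 a small cysteine-rich protein abundant in Ly6C-high monocytes, and Chil3 a chitinase-like protein (YM1) of monocytes and alternatively activated macrophages. Counts came from whole tissue, in which fewer cells of a type and less RNA per cell cannot be told apart.

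Zeb2, the gene deleted in cardiomyocytes, was at 61.3, 116.05 and 71.9 CPM in control and 59.6, 72.6 and 66.5 CPM in Zeb2 cKO hearts, highest in control replicate 2. The reads stem from whole tissue, whereas the deletion is made in cardiomyocytes. The log2FC of Zeb2 was -0.33 (-0.0058 without control replicate 2), so whole-tissue counts did not separate the genotypes at the targeted gene in these 6 hearts. The paper reports the loss of ZEB2 from cardiomyocytes of Zeb2 cKO mice by qPCR and immunofluorescence.

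Several of these genes were high together in 1 control heart, and the sequences upstream of their start sites are shown for 4 of them and for Csf1, which varied little between hearts. RefSeq promoter windows of GRCm38.p6, from 250 bases before to 50 bases after a start site, were used for 6 of the genes (8 windows), and the 250 bases before the start are printed 5′ to 3′ on the gene's strand. They lie at chr9:124101933-124102182 on the plus strand for Ccr2 and, on the minus strand, at chr9:120068297-120068546 for Cx3cr1, chr5:100572206-100572455 for Plac8, chr15:75111972-75112221 for Ly6c2 and chr3:107760470-107760719 for Csf1. Start sites are those of RefSeq, whereas the gene spans given below are those of Gencode M21. Within those spans lie the whole Cx3cr1 stretch, most of the Ccr2 stretch and the last part of the Plac8 stretch. Capitals mark matches to CACCT, the core of the E-box read by ZEB factors, or its reverse complement, and to GAGGAAG, a core read by the myeloid factor PU.1.
Ccr2: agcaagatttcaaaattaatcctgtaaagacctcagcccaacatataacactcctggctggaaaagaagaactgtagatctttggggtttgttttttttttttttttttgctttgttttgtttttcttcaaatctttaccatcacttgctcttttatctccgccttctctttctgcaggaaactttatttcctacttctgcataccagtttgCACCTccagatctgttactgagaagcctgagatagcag
Cx3cr1: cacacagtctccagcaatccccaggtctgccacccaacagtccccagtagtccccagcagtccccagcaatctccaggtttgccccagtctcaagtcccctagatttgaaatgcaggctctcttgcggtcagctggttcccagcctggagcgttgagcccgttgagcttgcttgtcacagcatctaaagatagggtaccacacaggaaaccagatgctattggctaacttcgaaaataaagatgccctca
Plac8: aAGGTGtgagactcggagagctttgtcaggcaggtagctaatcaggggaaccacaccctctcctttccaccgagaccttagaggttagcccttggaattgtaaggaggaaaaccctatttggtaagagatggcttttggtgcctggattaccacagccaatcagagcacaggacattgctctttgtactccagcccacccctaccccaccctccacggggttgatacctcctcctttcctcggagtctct
Ly6c2: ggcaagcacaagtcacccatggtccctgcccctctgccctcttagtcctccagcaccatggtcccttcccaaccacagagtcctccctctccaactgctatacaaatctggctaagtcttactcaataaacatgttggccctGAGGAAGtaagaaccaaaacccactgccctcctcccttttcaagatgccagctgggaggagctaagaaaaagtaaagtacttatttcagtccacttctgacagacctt
Csf1: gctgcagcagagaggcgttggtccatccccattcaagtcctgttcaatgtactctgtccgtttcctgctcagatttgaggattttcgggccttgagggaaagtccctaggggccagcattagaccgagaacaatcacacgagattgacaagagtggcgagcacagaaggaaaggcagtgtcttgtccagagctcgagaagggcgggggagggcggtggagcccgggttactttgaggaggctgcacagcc
The full E-box CACCTG, searched on both strands, occurred in 20.2% of all 32851 windows and in 0 of the 8 windows of these genes. Its shorter form CACCT, which every CACCTG contains, was present in 51.9% of all windows and in those of Ccr2 (38 bases before the start, on the gene's strand), Chil3, Plac8 and the second Ly6c2 window. GAGGAAG, found in 13.6% of all windows, was present only for Ly6c2 among these 8 windows, with matches 108 bases before the start and at base 27 after it in the window whose upstream part is printed. The Csf1 and Cx3cr1 windows held no match. A match describes the letters only.

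Ccr2 (ENSMUSG00000049103, chr9:124101950-124113557, plus strand) encodes the receptor by which Ly6C-high monocytes are recruited, and it was high in 1 control heart. It was at 4.91, 31.8 and 9.04 CPM in the control hearts (replicates 1, 2 and 3) and at 7.81, 7.37 and 7.74 CPM in those of Zeb2 cKO mice. control replicate 2 was the only heart above 10 CPM, the Zeb2 cKO hearts lay within a narrow range, and the groups overlapped because control replicate 1 was the lowest of all. The log2FC was -1.0 (standard error 0.62), which did not pass the edgeR quasi-likelihood test after Benjamini-Hochberg correction (adjusted p = 0.957), and the exact permutation test over the 6 hearts gave p = 0.7 (two-sided, where 3 against 3 cannot go below 0.1). Without control replicate 2 the log2FC was 0.14.

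The ligands that CCR2 binds differed among themselves in their order over the hearts. Ccl2, the main attractant of Ly6C-high monocytes, was at 1.14, 1.71 and 2.27 CPM in control and 1.32, 1.24 and 1.08 CPM in Zeb2 cKO hearts (log2FC -0.49, and -0.49 also without control replicate 2). Its highest value was in control replicate 3 and not in the heart with the most Ccr2. Ccl7 had a log2FC of -0.064. Ccl8 was at 0.478, 3.08 and 1.09 CPM in control and 1.68, 0.622 and 1.21 CPM in Zeb2 cKO hearts, and Ccl12 at 0.770, 3.37 and 2.19 against 1.06, 0.530 and 1.56 CPM. Both were highest in control replicate 2, as was Ccr2. Their log2FC values were -0.41 and -1.0 with all hearts, and 0.58 and -0.48 without that replicate. None of these ligands passed the test, and the groups overlapped in each.

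Cx3cr1 (ENSMUSG00000052336, chr9:119901616-120069879, minus strand) was at 6.11, 33.5 and 8.98 CPM in control and 4.32, 8.34 and 9.04 CPM in Zeb2 cKO hearts. Again a single control heart stood above the rest, and Zeb2 cKO replicate 1 was the lowest. The log2FC was -1.16 (standard error 0.65, adjusted p = 0.957, edgeR) and -0.058 without control replicate 2. Its ligand Cx3cl1 (fractalkine) followed the same order at the top, with 4.81, 15.1 and 5.94 CPM in control and 5.44, 4.72 and 7.18 CPM in Zeb2 cKO hearts (log2FC -0.57, or 0.11 without replicate 2). In GRCm38, 1.73% of the exonic length of Cx3cr1 overlaps Gm33858 on the opposite strand.

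The 3 markers of Ly6C-high monocytes were scarce in these hearts. Plac8 (ENSMUSG00000029322, chr5:100553725-100572245, minus strand) had 8, 66 and 18 counts in control and 9, 13 and 16 counts in Zeb2 cKO hearts, or 0.212, 1.5 and 0.469 against 0.180, 0.300 and 0.298 CPM. control replicates 2 and 3 lay above every Zeb2 cKO heart, and replicate 1 lay within their range. The log2FC of -1.50 (standard error 0.70, adjusted p = 0.957, edgeR) was the lowest of the 7 tested genes, and it was -0.39 without control replicate 2.

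Ly6c2 (ENSMUSG00000022584, chr15:75108158-75111970, minus strand), which encodes the Ly6C antigen by which these monocytes are sorted, had 1, 21 and 2 counts in control and 2, 2 and 4 counts in Zeb2 cKO hearts. Outside control replicate 2 these are a handful of reads, so the levels were at the limit of the depth. Its neighbour Ly6c1, which is expressed in endothelium, was at 20.9 to 28.1 CPM in all 6 hearts and was not highest in control replicate 2. The coding sequences, taken as the longest open reading frame of the longest coding transcript of each gene in Gencode M21, both span 396 bases and are identical at 387 of them (97.7%). Their first 150 bases are shown because the counts of Ly6c2 rest on such differences, which are set in capitals.
Ly6c2: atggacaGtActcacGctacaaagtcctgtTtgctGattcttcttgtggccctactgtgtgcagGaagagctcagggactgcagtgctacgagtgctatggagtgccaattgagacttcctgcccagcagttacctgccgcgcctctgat
Ly6c1: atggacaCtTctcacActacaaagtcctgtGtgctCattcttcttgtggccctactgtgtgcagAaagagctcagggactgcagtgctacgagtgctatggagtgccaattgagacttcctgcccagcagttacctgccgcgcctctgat
These stretches differ at 6 bases, and beyond them long runs are shared. Of all 748 windows of 75 bases, the read length, in the longest coding Ly6c2 transcript, 164 (21.9%) are also found in Ly6c1, and how reads that match both were counted was not stated. The counts of Ly6c2 are therefore uncertain.

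Chil3 (ENSMUSG00000040809, chr3:106147554-106167564, minus strand) had 2, 4 and 6 counts in control and 5, 1 and 6 counts in Zeb2 cKO hearts. Unlike Ccr2, Cx3cr1 and Plac8, it was not highest in control replicate 2. Its near copy Chil4, 94.4% identical over the coding sequence and sharing 125 of 1465 windows of 75 bases (8.53%) with the Chil3 transcript, was at 0 counts in every heart.

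Csf1 (ENSMUSG00000014599, chr3:107741048-107760469, minus strand), the main growth factor of macrophages, varied least of the 9 genes. It was at 24.1, 29.5 and 33.1 CPM in control and 30.5, 33.2 and 28.8 CPM in Zeb2 cKO hearts, with a coefficient of variation of 11.3% over the 6 hearts. No heart stood apart and the groups overlapped. The log2FC was 0.093 (standard error 0.15, adjusted p = 0.957, edgeR; exact permutation p = 0.6).

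Il34 (ENSMUSG00000031750, chr8:110741829-110805924, minus strand), the alternative ligand of CSF1R, was at 1.43, 1.09 and 1.28 CPM in control and 0.999, 1.5 and 1.45 CPM in Zeb2 cKO hearts. These values correspond to 48 to 78 counts a library, and their coefficient of variation was 16%. The hearts of the genotypes were interspersed, with a log2FC of 0.055 (standard error 0.24, adjusted p = 0.983, edgeR). Small parts of its exonic length overlap Gm15895 (3.83%) and Gm15894 (1.12%) on the opposite strand. IL-34 also binds PTPRZ1 and syndecan-1. Ptprz1 had a log2FC of -0.12 (0.20 without control replicate 2) and Sdc1 of -0.96 (0.11), the latter with 19.9 CPM in control replicate 2 against 4.2 to 5.51 CPM in the other hearts.

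Csf1r (ENSMUSG00000024621, on chromosome 18), the receptor that both growth factors share, was at 31.1, 78.8 and 36.6 CPM in control and 38.2, 40.8 and 36.3 CPM in Zeb2 cKO hearts. control replicate 2 was again the highest, by a smaller factor than for the monocyte genes, and control replicate 1 was the lowest. The log2FC was -0.34 (standard error 0.34, adjusted p = 0.957, edgeR; exact permutation p = 0.9), and 0.19 (standard error 0.11) without control replicate 2. Of the exonic length of Csf1r, 15.1% overlaps Hmgxb3 on the opposite strand, and the strand setting of the counting was not stated.

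Adgre1 (ENSMUSG00000004730, chr17:57358691-57483527, plus strand), which encodes the macrophage surface protein F4/80, was at 11.6, 54.0 and 17.6 CPM in control and 14.3, 14.2 and 13.8 CPM in Zeb2 cKO hearts. The Zeb2 cKO hearts were close to each other (14.1 ± 0.307 CPM, SD, n = 3), between control replicates 1 and 3, and the control hearts spread widely (27.8 ± 22.9 CPM, SD, n = 3). The log2FC was -0.98 (standard error 0.53, adjusted p = 0.957, edgeR; exact permutation p = 0.4) and -0.048 without control replicate 2.

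**Figure D1:**
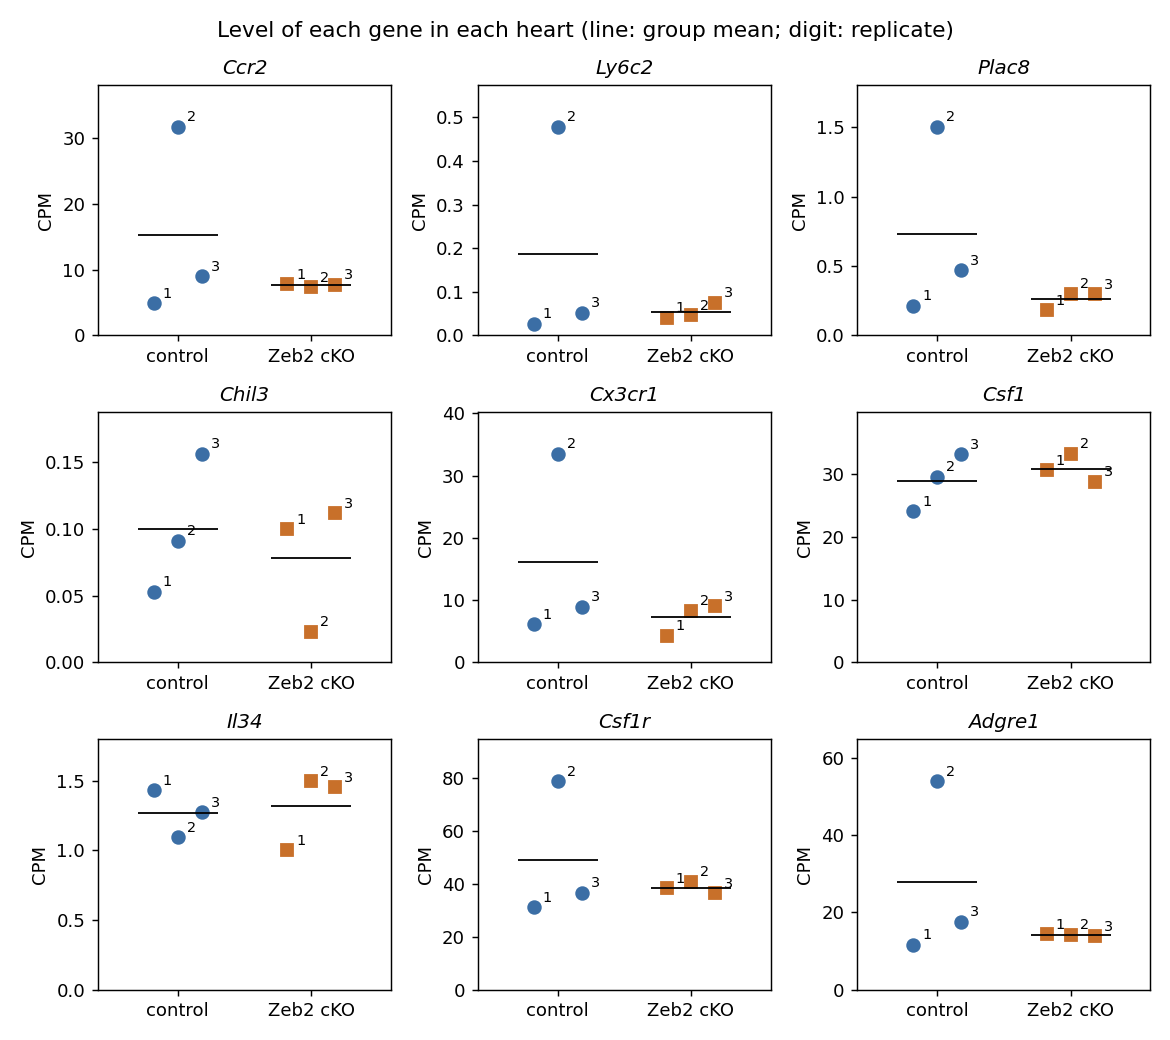
CPM of the 9 genes (vertical axes, each from 0) in the 3 control and the 3 Zeb2 cKO hearts, with the replicate number beside each point and a line at each group mean. control replicate 2 is far above the other hearts for Ccr2 (31.8 CPM), Cx3cr1 (33.5 CPM), Plac8, Ly6c2, Adgre1 and Csf1r, and lies among them for Csf1, Il34 and Chil3.

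Levels of different genes were compared per kb of exonic length. In Zeb2 cKO hearts the order of mean levels was Csf1r (6.66 ± 0.389 CPM per kb, SD, n = 3), Csf1 (5.84 ± 0.421), Adgre1 (4.36 ± 0.0948), Cx3cr1 (1.61 ± 0.566), Ccr2 (1.13 ± 0.0349), Il34 (0.672 ± 0.141), Plac8 (0.163 ± 0.0431), Chil3 (0.0479 ± 0.0295) and Ly6c2 (0.0195 ± 0.00671). The ranges of neighbours in this order overlapped only for Cx3cr1 with Ccr2 and for Chil3 with Ly6c2. In control hearts every neighbour overlapped the next, and Adgre1 (8.57 ± 7.09 CPM per kb) and Csf1r (8.45 ± 4.52 CPM per kb) came first. In both genotypes Csf1 was thus the more abundant ligand of CSF1R, with a log2 ratio of Csf1 to Il34 (of CPM, not per length) between 4.06 and 4.92 in the 6 hearts.

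**Figure D2:**
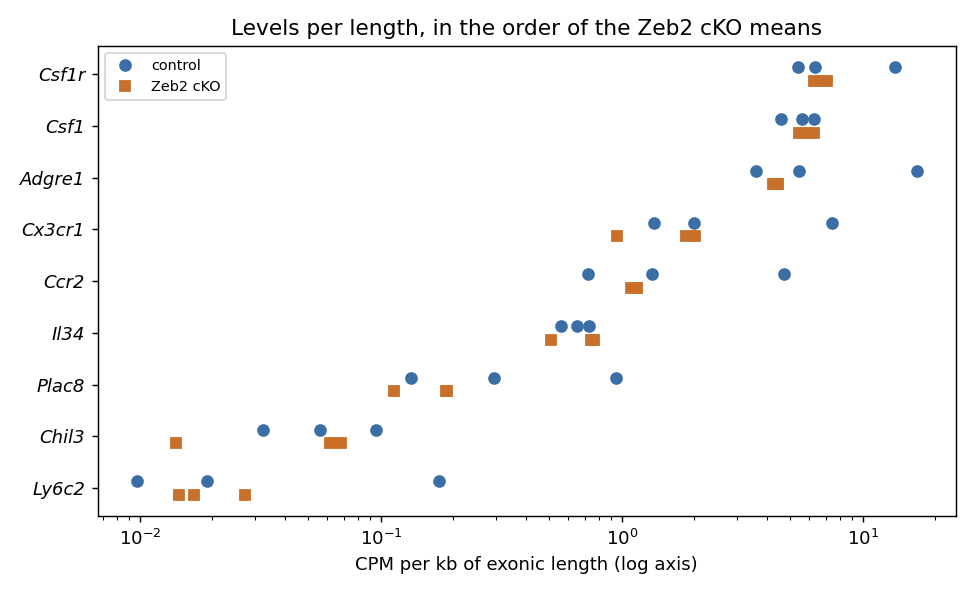
CPM per kb of exonic length (horizontal log axis) of the 9 genes in each heart, with control hearts as circles and Zeb2 cKO hearts as squares, ordered by the Zeb2 cKO mean. Csf1r and Csf1 lead in Zeb2 cKO hearts, and Chil3 and Ly6c2 lie below 0.2 CPM per kb in every heart.

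Between the genotypes, 5 of the 7 tested genes (Ccr2, Cx3cr1, Plac8, Adgre1 and Csf1r) had a log2FC under -0.2, where 22.6% of all tested genes did, and 0 had one over 0.2, where 15.9% did. The median over the 7 was -0.98, against -0.0069 over all tested genes. None passed an adjusted p of 0.05, as 0 of the 14746 genes did in either direction by edgeR (0% of genes), while 280 (1.9%) had an unadjusted p under 0.05, none of them among the 7. DESeq2 called 2 genes, both higher in Zeb2 cKO hearts and neither among the 7. With all hearts, the unadjusted p of Plac8 was 0.048 by DESeq2 and 0.044 by edgeR without the filter on low counts. The rest of the 7 stayed above 0.05 in both, and none passed the adjustment. The libraries of the genotypes overlapped for all 9 genes, where 2.97% of tested genes had all Zeb2 cKO hearts below and 3.39% all above the control hearts. Control replicate 2 decided the count and the median, and control replicate 1 the overlap of 3 genes. Without replicate 2, 1 of the 7 genes (Plac8) was under -0.2, where 11.7% of 14966 tested genes were, the median was -0.040, and the genotypes again overlapped for all 9 genes, where 7.48% of tested genes lay lower and 8.07% higher throughout. None of the 7 had an unadjusted p under 0.05 there, as 2.63% of tested genes did. Without replicate 1, the same 5 genes were under -0.2 (28.8% of 15075 tested genes) with a median of -1.34. Ccr2, Plac8 and Adgre1 then lay wholly below in Zeb2 cKO hearts, as 12.1% of tested genes did. Ccr2 (log2FC -1.42), Plac8 (-1.93), Cx3cr1 (-1.55) and Adgre1 (-1.34) then had an unadjusted p under 0.05, as 7.52% of tested genes did, with an adjusted p of 0.596 each (edgeR).

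**Figure D3:**
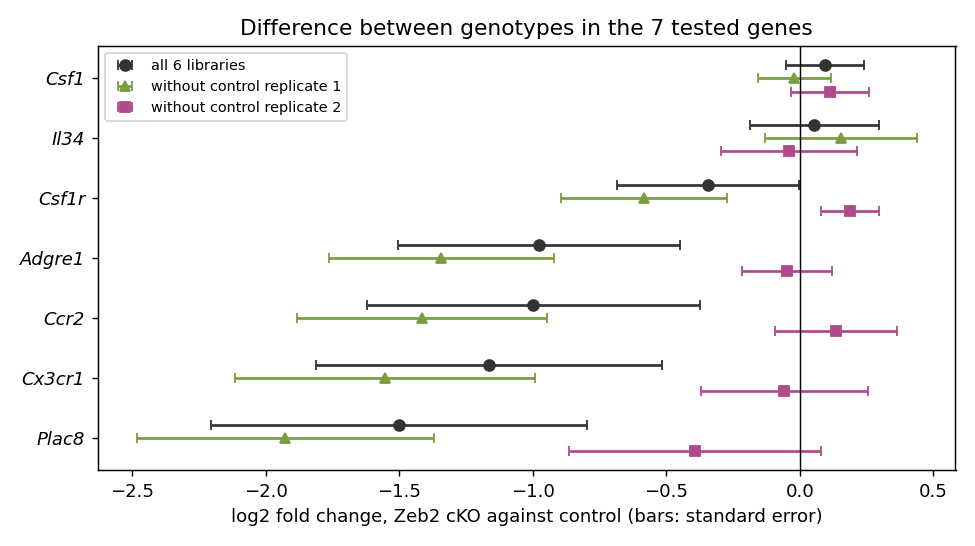
Log2FC between Zeb2 cKO and control hearts (horizontal axis, bars are standard errors) of the 7 tested genes, with all 6 hearts (circles), without control replicate 1 (triangles) and without control replicate 2 (squares). Plac8, Cx3cr1, Ccr2 and Adgre1 lie near or below -1 except without replicate 2, where Ccr2 is at 0.14, and Csf1 and Il34 stay close to 0 throughout.

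control replicate 2 stood apart in the whole table: it was the highest of the 6 libraries in 35.2% of tested genes and over 2 times the mean of the other 5 in 9.33%, against 0.244% to 0.766% for the other libraries. Total counts were between 37288174 and 51136331 a library, of which 14301225 to 19024394 lay outside the mitochondrially encoded genes, and its total was the lowest. Relative to the mean of the other 5 hearts, this heart held 5.16 times as much Plac8, 4.55 times as much Cx3cr1, 4.31 times as much Ccr2, 3.77 times as much Adgre1 and 2.15 times as much Csf1r. Csf1 was at 0.987 times and Il34 at 0.821 times that mean, so the growth factors did not share the pattern of their receptor. Among the ligands, Ccl8 was at 3.03, Ccl12 at 2.76, Cx3cl1 at 2.68, Ccl2 at 1.21 and Ccl7 at 1.02 times. The summed level of 16 pan-macrophage genes was 1069 CPM in this heart and 253 to 311 CPM in the other 5. That of 10 fibroblast markers was 9798 CPM against 1732 to 2377 CPM, that of 10 cardiomyocyte markers 35034 CPM against 54845 to 66863 CPM, and that of 10 endothelial markers 503 CPM against 607 to 724 CPM. The part of tissue composition in the differences between genotypes was not tested.

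**Figure D4:**
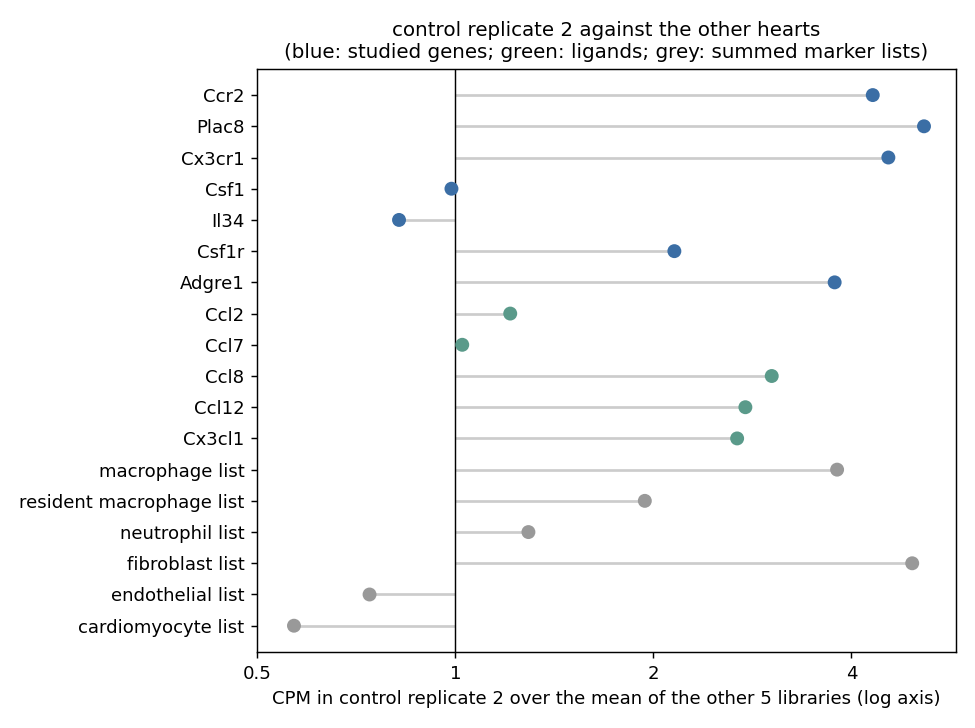
CPM in control replicate 2 over the mean of the other 5 hearts (horizontal log axis, 1 marked by a line) for the 7 tested genes (blue), the chemokine ligands (green) and the summed CPM of marker lists (grey). Plac8, Cx3cr1, Ccr2 and Adgre1 lie near the macrophage list at 3.80 and the fibroblast list at 4.95, and Csf1 and Il34 near 1.

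Ratios within a heart do not depend on how libraries were scaled, and 13 of them were compared between genotypes. Ccr2 followed Adgre1 closely: their log2 ratio was -1.24, -0.76 and -0.96 in control and -0.88, -0.95 and -0.83 in Zeb2 cKO hearts. Relative to the mean of the pan-macrophage genes, Adgre1 stayed between 0.51 and 0.79 on the log2 scale in all 6 hearts. Csf1r behaved otherwise, with a log2 ratio to that mean of 2.01, 1.19 and 1.80 in control and 2.20, 2.06 and 1.91 in Zeb2 cKO hearts, so this ratio was lowest in the heart where the level of Csf1r was highest. The log2 ratio of Csf1r to Adgre1 was 0.54 in that heart and 1.05 to 1.52 in the others. The log2 ratio of Csf1 to its receptor was nearly constant in Zeb2 cKO hearts, at -0.32, -0.30 and -0.34, and was -0.37, -1.41 and -0.14 in control hearts. Cx3cr1 relative to Ccr2 was lowest in Zeb2 cKO replicate 1 (log2 ratio -0.85) and between -0.0083 and 0.31 in the other 5 hearts. None of the 13 ratios separated the genotypes, with exact permutation p-values between 0.2 and 0.9 (two-sided) and an adjusted p of 0.9 for each over the 13.

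**Figure D5:**
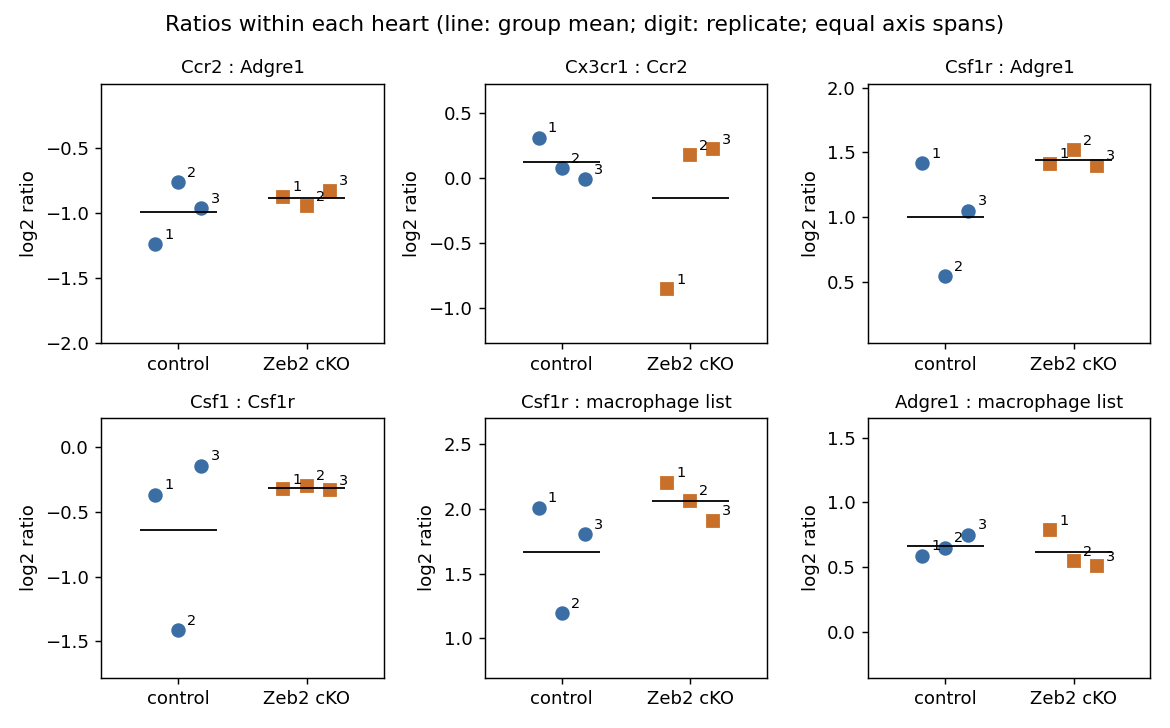
Log2 ratios of CPM within each heart (vertical axes of equal span), with the replicate number beside each point and a line at each group mean. Ccr2 to Adgre1 and Adgre1 to the macrophage list vary little, whereas Csf1 to Csf1r drops to -1.41 and Csf1r to Adgre1 to 0.54 in control replicate 2.

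Other genes of the same cells and pathways were read against the same shares over all tested genes. Of 13 tested genes of Ly6C-high monocytes outside the 9 genes, 9 were under -0.2 and 3 over 0.2 (3 and 2 without control replicate 2). Clec4e, a lectin receptor for damaged cells, was at 0.425, 0.706 and 0.417 CPM in control and 0.160, 0.138 and 0.205 CPM in Zeb2 cKO hearts (log2FC -1.60, and -1.30 without replicate 2). These are 16 to 31 and 6 to 11 counts. Clec4e passed the filter on low counts through the control hearts alone, so its separation is read as a description, and it did not pass the adjusted test. Ms4a4c, the next by p, had a log2FC of -1.85 (-0.80 without replicate 2). Among 6 tested genes of patrolling monocytes 4 were under -0.2, led by Fcgr4 at 5.04 CPM in control replicate 2 and 0.360 to 0.807 CPM elsewhere, and without that replicate 4 were under -0.2 and 1 over 0.2.

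Of 17 tested genes among other colony stimulating factor receptors and signalling partners of CSF1R, 14 were under -0.2 and 1 over 0.2, and 5 and 0 without control replicate 2. Csf2ra, the alpha chain of the GM-CSF receptor, was at 2.79, 3.30 and 2.79 CPM in control and 1.88, 2.54 and 2.27 CPM in Zeb2 cKO hearts. It was lower in every Zeb2 cKO heart, with a log2FC of -0.41 (standard error 0.18) that did not pass the adjusted test, and was -0.32 without replicate 2. Csf2 and Csf3, which encode the growth factors GM-CSF and G-CSF, had at most 3 counts in every heart. Tyrobp, an adaptor of myeloid receptors, was at 31.2 CPM in control replicate 2 and 5.76 to 8.05 CPM in the other hearts. Of 11 tested transcription factors of monocytes and macrophages, 9 were under -0.2 and 1 over 0.2 (2 and 3 without replicate 2), with Spi1, which encodes PU.1, at 1.33, 5.76 and 2.01 CPM in control and 1.28, 1.68 and 2.18 CPM in Zeb2 cKO hearts.

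Of 10 genes of resident cardiac macrophages 3 were under -0.2 and 6 over 0.2, with a median log2FC of 0.43 (0.18 without control replicate 2, with 0 under -0.2 and 4 over 0.2). Folr2, a folate receptor of these cells, was at 3.61, 2.87 and 4.14 CPM in control and 6.67, 7.14 and 4.26 CPM in Zeb2 cKO hearts, and Cbr2 at 6.69, 3.83 and 6.54 against 7.85, 7.74 and 7.52 CPM. Both were higher in every Zeb2 cKO heart and lowest in control replicate 2, and neither passed the adjusted test. The summed level of the 10 genes ran the other way, with 345 CPM in control replicate 2 and 158 to 196 CPM in the other hearts. That replicate held 1.94 times the mean of the others. Of 16 pan-macrophage genes 14 were under -0.2 and 0 over 0.2, and 1 and 1 without control replicate 2. Neutrophil markers summed to 1.22 to 2.92 CPM a heart, and Ly6g, Camp, Ngp, Elane and Mpo had at most 3 counts in each. Lymphocyte markers summed to 1.38 to 4.72 CPM, with the most in control replicate 2.

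Profiles most like each of 4 anchor genes were found over the 6 hearts among 12326 genes of at least 1 CPM on average, by the root mean square difference of mean-centred log2 CPM. For Ccr2 they were Cd53 (0.0613), Gpr34 (0.0877) and Clec12a (0.10), which encode surface proteins of leukocytes, and Adgre1 ranked 19th (0.152). The 3 genes most like Csf1r included Cpxm2 (0.0384) and Pdgfra (0.0471), of which Pdgfra encodes a receptor of fibroblasts. Between Ccr2 and Csf1r the difference was 0.430, which ranked Csf1r 632 in likeness to Ccr2 and Ccr2 5005 in likeness to Csf1r. Csf1 was most like Zfp524 (0.0260), Carf (0.0450) and Enox2 (0.0546), and Il34 most like Zfp653 (0.0433), Cdk2 (0.0594) and Lmbr1l (0.0642). These likenesses are descriptions over 6 libraries, and those of Ccr2 and Csf1r follow the high value of control replicate 2. Ccr1, a chemokine receptor gene within 200 kb of Ccr2 on chromosome 9, was at 2.08 times the mean of the other 5 hearts in that replicate.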

How the data were processed

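RNA-seq of heart tissue from 3 control (Zeb2 fl/fl, labelled WT) and 3 Zeb2 cKO mice, 14 days after MI, was used. Groups came from the sample labels, and 0 columns were left unmatched. The authors prepared stranded, ribosomal RNA-depleted libraries, aligned single-end reads of 75 bases and counted them on Gencode M4 (GRCm38) with the STAR workflow. They deposited raw counts per gene. Handling of strand and of reads that match several places is not given in the sources used here. The submitters' processing notes list DESeq 1.2, which was not used here.

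Symbols, exonic lengths and transcripts were taken from Gencode M21, which gave a symbol for 14573 of 14746 tested genes. Counts were normalised by TMM and tested with glmQLFit and glmQLFTest in edgeR 4.0.16 (R 4.3.3) after filterByExpr, with genotype as the only factor, a prior count of 0.125 and Benjamini-Hochberg adjustment over all genes kept. The fold change cutoff was 0.2 on the log2 scale. Single values were compared by exact permutation tests over hearts (SciPy 1.17.1), and log2 ratios used a prior count of 0.5. DESeq2 1.42.0 was an alternative. Near copies were searched with BLAST 2.17.0 (alignments of at least 75 bases with at least 95% identity over their whole length), which found all 822 bases of the longest coding Ly6c2 transcript within Ly6c1, 87 bases for Ccr2 and 0 for the other genes. Chil3 aligns to Chil4 at a lower identity and was compared by windows of 75 bases. Steps were tested on simulated counts. At the depths given above the spread between hearts, not counting error, sets the precision for all but genes of few counts, among them Ly6c2, Chil3, Plac8, Il34, Clec4e, Ms4a4c and Ccl7.

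Named were the 9 genes, their chemokine ligands, for other lists the 2 genes with the smallest p or markers needed to read them, the 3 most similar profiles, near copies and Zeb2, of which 1 similar profile is not reported here. Ccr1, Tyrobp and Spi1 and the genes of few counts were named after their values were seen. Genes and lists were chosen with earlier results of these data known. Alternatives covered normalisation, mitochondrially encoded genes, the filter, the test, robust dispersion, the replicate number, the prior count of ratios, the motif and leaving out each library. Replicate numbers 1, 2 and 3 occur in both groups but mark different animals. Nothing links surgery dates or surgeons to samples.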

Additional observations from a re-analysis of the deposited data

How the results depend on the processing

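Over 84 alternative values for the 7 tested genes the smallest adjusted p was 0.596, and 6 reversed in sign, all by leaving out a library. Leaving out each library in turn gave log2 fold changes between -1.42 and 0.14 for Ccr2, -0.58 and 0.19 for Csf1r, -0.021 and 0.20 for Csf1, and -0.044 and 0.22 for Il34. The positive values of Ccr2 and Csf1r arose without control replicate 2, and the negative value of Csf1 without control replicate 1. The number of these genes under -0.2 then ran from 1 to 5 and the number over 0.2 from 0 to 1. The cause was not tested. Genes called higher over the whole table numbered 2 with the DESeq2 Wald test and 0 with every edgeR alternative, and unadjusted p-values under 0.05 were reached by 122 (without Zeb2 cKO replicate 1) to 1134 genes (without control replicate 1).

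Same-numbered libraries deviated together with correlations of 0.088, -0.14 and -0.087, and unlike-numbered ones with correlations of -0.26 to 0.24. With deviations from means of 3 libraries a group, this check cannot decide whether the numbers pair the samples. With a replicate block, 247 genes had an unadjusted p under 0.05 and 0 passed the adjustment, 5 of the 7 genes stayed under -0.2, and their median was -0.55.

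Of 91 alternative values for the 13 ratios 14 reversed in sign, all by leaving out a library. For the ratios that reversed, the differences in log2 ratio between genotypes then ran from -0.021 to 0.22 for Ccr2 to Adgre1, -0.47 to 0.074 for Cx3cr1 to Ccr2, -0.15 to 0.20 for Csf1 to Il34, -0.063 to 0.57 for Csf1 to Csf1r and -0.25 to 0.61 for Il34 to Csf1r. Relative to the pan-macrophage genes they ran from -0.11 to 0.16 for Ccr2, -0.48 to 0.25 for Ly6c2, -0.49 to 0.79 for Chil3, -0.39 to 0.038 for Cx3cr1 and -0.14 to 0.0022 for Adgre1. Those for Ly6c2 and Chil3 rest on few counts. The other 3 kept their sign, with 0.21 to 0.65 for Csf1r to Adgre1, and 0.15 to 0.56 for Csf1r and -0.66 to -0.29 for Plac8 relative to the pan-macrophage genes. Depth limited Ly6c2, Chil3 and Plac8.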
